A study of Mus musculus with 12 samples.

Results

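The knockout effect shared by a male and a female pair of mouse fibroblast lines was read from polyadenylated RNA of 12 cultures, all 12 of the series. The 6 libraries labelled KO for Sirt3 were set against the 6 labelled WT, with sex as a covariate, on log2(TPM+1), where TPM is a transcript abundance scaled to a fixed library total. A gene was called when limma gave an adjusted p under 0.05 (Benjamini-Hochberg over all genes tested), and taken as shared when its change also had the same sign in the male and in the female pair. Averaging at least 1 TPM were 12504 genes, of which 2601 (20.8%) were shared, 1139 higher and 1462 lower in labelled KO.

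The cells were mouse embryonic fibroblasts, connective-tissue cells grown out of embryos, here taken at embryonic day 13 and immortalized with a plasmid carrying SV40 T antigen. Male WT and female WT cells came from 129S1/SvImJ embryos with wild-type Sirt3, and male KO and female KO cells from a separate Sirt-3 KO stock, with 3 libraries in each of the 4 groups. No treatment is described, and all cells were at passage 6 and gave RNA 48 h after seeding. The number of embryos or lines behind a group is not given in the sources used here. Genotype, stock and line therefore cannot be told apart, and since the methods describe wells seeded in triplicate, the p-values measure the spread between cultures of a group. In the fit of both pairs the spread also takes in any difference between the pairs, for which that fit has no term. The depth that each library reached is not given with the deposited TPM.

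Sirt3 encodes an NAD-dependent deacetylase of the mitochondrial matrix that acts on enzymes of fuel oxidation and antioxidant defence. Fibroblasts make and remodel the extracellular matrix, so much of their protein passes through the endoplasmic reticulum (ER), where chaperones fold it. The unfolded protein response adjusts the amount of those chaperones, and the SREBP factors, which also start out in the ER membrane, adjust the genes of cholesterol synthesis and uptake.

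The labels were first set against Sirt3 mRNA (ENSMUSG00000025486.17, chr7:140863666-140882309, minus strand of GRCm38). Sirt3 stood at 6.59, 7.17 and 9.07 TPM in the male WT libraries, 8.88, 10.9 and 11 in the male KO, 7.40, 7.60 and 8.69 in the female WT and 7.57, 9.06 and 8.19 in the female KO. The KO values lay within or above the range of the WT values, with overlap in each pair, and the log2 fold change was 0.23 (standard error 0.10, adjusted p = 0.136, limma, Benjamini-Hochberg). Gene-level TPM cannot show whether these transcripts carry a disrupted exon. The labelled KO libraries are therefore called that by their labels throughout, and every direction given is of labelled KO relative to labelled WT. Among the other sirtuins, Sirt1, a nuclear deacetylase, fell by 0.39 on the log2 scale, from 21.1, 21.2 and 22.9 to 16.8, 15.9 and 13.8 TPM in male and from 21.7, 22.8 and 18.8 to 17.8, 16.3 and 16.1 TPM in female cells. Sirt1 did not overlap between genotypes in either pair. Of 7 sirtuins tested, Sirt1 and Sirt5, a desuccinylase of mitochondria, were shared, both lower (adjusted p = 0.0277 for Sirt5, limma, Benjamini-Hochberg). This is 28.6% of the sirtuins, while 11.7% of all genes tested were shared and lower. The call of Sirt5 was lost in 5 of the fits that left out 1 library, with the highest adjusted p (limma) of 0.0570 without female KO replicate 1, against a range of 0.0124 to 0.115 over all settings.

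Before the sign was required, 2624 genes were called (21.0%), and 23 of them had opposite signs in the 2 pairs. Of the shared genes, 1675 had all 3 KO values on 1 side of all 3 WT values in both pairs, against 1763 (14.1%) of all genes tested. The typical shared change was small, with a median absolute log2 fold change of 0.29. A change of at least 2-fold in both pairs was seen for 58 shared genes, 25 higher and 33 lower. With each pair fitted on its own 6 libraries, 2707 genes (21.6%) were called in the male and 1434 (11.5%) in the female pair. The female count was 774 to 835 whichever 1 of its 6 libraries was left out, and 670 with the replicate number as a block. The pairs share no library, and 593 genes (4.74%) were called in each with the same direction, while 137 were called in each with opposite directions. The 593 became 305 with the block and 364 to 395 without any 1 of the 6 female libraries. Of the 2601 shared genes, 1594 were called in the male pair, 942 in the female pair and 658 in neither alone.

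The pairs moved alike for only part of the genes. The sign was the same in both pairs for 61.0% of all genes tested, and Pearson's r of the male and female log2 fold changes was 0.23 across genes, which are not independent replicates. A test of the difference between the pairs passed for 1629 genes (13.0%), of which 520 were shared genes. For 432 of these 520 the male change was the larger, and for 88 the female change. The male pair was also further apart as a whole. Its WT and KO libraries differed by 0.56 (root mean square of log2 differences over genes, mean of library pairs) and the female ones by 0.46, against 0.38 to 0.40 between libraries of 1 group. Male and female WT libraries differed by 0.50 on the same measure.

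**Figure D1:**
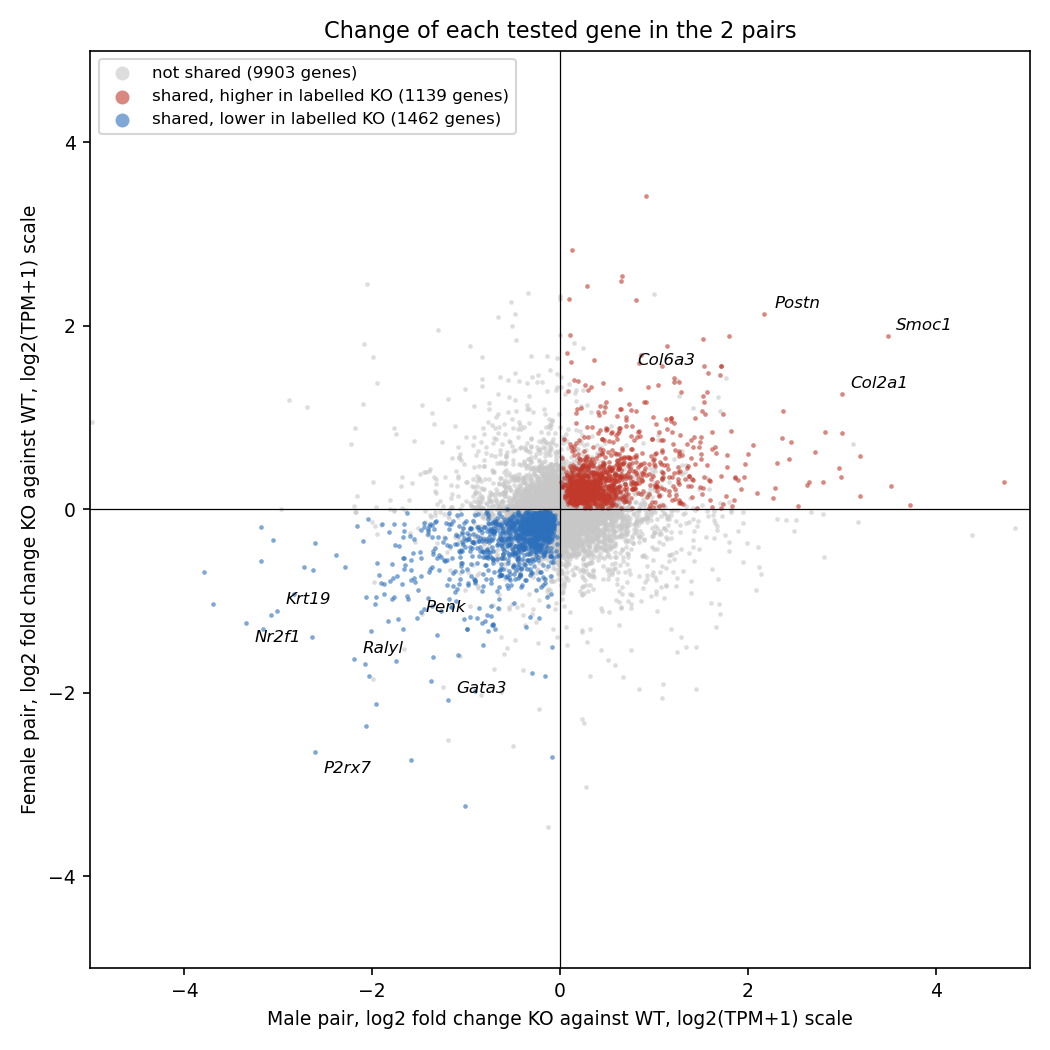
Each point is 1 of 12504 genes, with the log2 fold change of labelled KO against labelled WT in the male pair on the x axis and in the female pair on the y axis (log2(TPM+1) scale). Red points are the 1139 shared higher genes and blue points the 1462 shared lower genes, and named genes include Postn, at 2.17 in the male and 2.13 in the female pair.

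Postn (ENSMUSG00000027750.16, chr3:54361109-54391037, plus strand), a matrix protein that binds collagen and integrins, led the genes that rose. Its level was 123, 122 and 122 TPM in the male WT libraries, 536, 575 and 554 in the male KO, 144, 146 and 146 in the female WT and 628, 634 and 656 in the female KO. Every KO library lay far above every WT library of its sex, and libraries within a group differed little. The log2 fold change was 2.15 (standard error 0.024, adjusted p = 2.43e-14, limma, Benjamini-Hochberg), higher in 6 of 6 KO libraries, and its size was 2.17 in the male and 2.13 in the female pair. Smoc1, a calcium-binding protein of basement membranes that modulates BMP signalling, was near 1 TPM in WT, at 0.649, 0.415 and 0.801 TPM in the male and 1.49, 0.924 and 1.84 in the female libraries. In KO it stood at 15.2, 18.6 and 17.6 TPM in the male and 7.41, 8.41 and 7.68 in the female libraries. Smoc1 therefore passed the 5 TPM mean only through its KO values. Smoc1 rose more in the male (3.49) than in the female pair (1.89), and this difference passed its own test (adjusted p = 5.49e-04, limma, Benjamini-Hochberg, 3 libraries a group).

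Matrix and cartilage genes recur among the 12 leading higher genes. Col6a3, a chain of the beaded-filament collagen VI (ENSMUSG00000048126.16, chr1:90765923-90843971, minus strand), stood at 101, 101 and 94.5 TPM in the male WT libraries, 279.7, 327 and 282 in the male KO, 77.4, 71.9 and 74.0 in the female WT and 206, 206 and 217 in the female KO. The groups did not overlap in either pair and the size was alike, 1.57 and 1.48. Acan, the large aggregating proteoglycan of cartilage, stood at 3.95, 5.36 and 5.33 TPM in the male WT libraries, 14.4, 18.5 and 14.6 in the male KO, 2.76, 2.12 and 2.09 in the female WT and 12, 10.6 and 10.5 in the female KO. Its lowest KO library was above its highest WT library also across the sexes, and Acan passed the 5 TPM mean only through its KO values. Col2a1, the main collagen of cartilage, stood at 1.61, 1.74 and 1.64 TPM in the male WT libraries, 21.4, 22.0 and 17.7 in the male KO, 8.59, 7.26 and 11.3 in the female WT and 20.9, 22.5 and 24.8 in the female KO. The KO libraries of both sexes reached a like level, while the WT libraries differed, so that the change was 3.00 in the male and 1.26 in the female pair (adjusted p of the difference = 1.06e-04, limma, Benjamini-Hochberg). Ogn, a small leucine-rich proteoglycan, was several times more abundant in male than in female cells, at 40.5, 41.8 and 38.5 TPM in the male WT libraries, 113, 123 and 126 in the male KO, 8.08, 8.96 and 8.30 in the female WT and 20.7, 20.1 and 25.3 in the female KO. It rose in both pairs without overlap. Its adjusted p (limma, Benjamini-Hochberg) was 1.52e-07 and ran from 2.38e-08 to 0.168 over the settings tried, the highest being the fit without a sex term.

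Other leading higher genes have other roles. Serpine2, an inhibitor of thrombin and plasminogen activators, rose from 8.81, 6.67 and 7.11 to 25.1, 25.5 and 29.9 TPM in the male pair and from 12, 11 and 11.7 to 37.5, 34.2 and 36.7 in the female pair. Shox2, a homeobox factor of limb and heart development, rose from 15.1, 15.8 and 15.6 to 52.6, 54.7 and 52.1 TPM in male and from 6.70, 8.93 and 7.83 to 22.2, 22.8 and 30.3 in female cells. For these 2 genes the groups were apart in each pair, as the choice of leading genes required. Commd6, a COMM-domain protein, rose by 1.55 (log2), Dhrs7, a short-chain dehydrogenase/reductase, by 1.58, and Sash1, a scaffold protein, by 1.29, likewise with no overlap in either pair.

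P2rx7 (ENSMUSG00000029468.17, chr5:122643911-122691432, plus strand), an ATP-gated cation channel, led the genes that fell. Its level was 19.9, 24.6 and 24.1 TPM in the male WT libraries, 2.35, 2.43 and 4.12 in the male KO, 24.1, 17.2 and 18.5 in the female WT and 1.97, 3.19 and 1.90 in the female KO. Every KO library lay several-fold below every WT library, also across the sexes. The log2 fold change was −2.63 (standard error 0.14, adjusted p = 1.87e-07, limma, Benjamini-Hochberg), nearly the same in the male (−2.61) and the female pair (−2.65). Nr2f1, an orphan nuclear receptor of development, stood at 57.8, 76.4 and 64.9 TPM in the male WT libraries, 3.76, 7.80 and 5.87 in the male KO, 44.8, 28.7 and 45.3 in the female WT and 12.4, 18.6 and 17.2 in the female KO. It fell in both pairs without overlap, further in the male (−3.34) than in the female (−1.24), and the difference passed its test (adjusted p = 0.00143, limma, Benjamini-Hochberg). Gata3, a zinc-finger factor of T-cell and epithelial lineages, fell from 7.94, 9.53 and 16.2 to 3.03, 6.69 and 3.34 TPM in male and from 21.9, 26.2 and 22.2 to 6.45, 3.87 and 4.33 in female cells. In Gata3 the male groups came close, while the female groups stood well apart.

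Krt19, a keratin of simple epithelia, stood at 67.2, 68.1 and 66.4 TPM in the male WT libraries, 7.30, 8.17 and 6.94 in the male KO, 13.4, 16.0 and 15 in the female WT and 5.15, 5.82 and 8.35 in the female KO. Male WT libraries held several times more Krt19 than female WT libraries, and the KO libraries of both sexes reached similar low levels. Penk, the precursor of the enkephalin peptides, fell from 19.2, 14.9 and 17.0 to 6.62, 6.34 and 3.35 TPM in the male pair and from 16.3, 17.8 and 15.1 to 7.19, 6.13 and 6.58 in the female pair, with no overlap in either. Slco2a1, a prostaglandin transporter, fell from 40.8, 40.3 and 39.6 to 10.2, 13.4 and 12.2 TPM in male cells and from 11.5, 10.2 and 10.6 to 3.63, 3.82 and 3.74 in female cells. Its adjusted p ran from 2.93e-08 to 0.0533 over the settings (limma, Benjamini-Hochberg), and missed the threshold without the sex term. Rbp4, which carries retinol, fell by 1.19 on the log2 scale, and Cadm4, an immunoglobulin-domain adhesion molecule, fell by 1.63. Cdh18, a classical cadherin, fell by 1.27 and Hap1, a partner of huntingtin, fell by 1.46. Ralyl, an RNA-binding protein, fell by 1.91 with a wide spread between KO libraries. Hist1h2bq, with a log2 fold change of −2.16, is 1 of many near-identical histone genes, and reads may be split between these copies, so its value is uncertain.

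**Figure D2:**
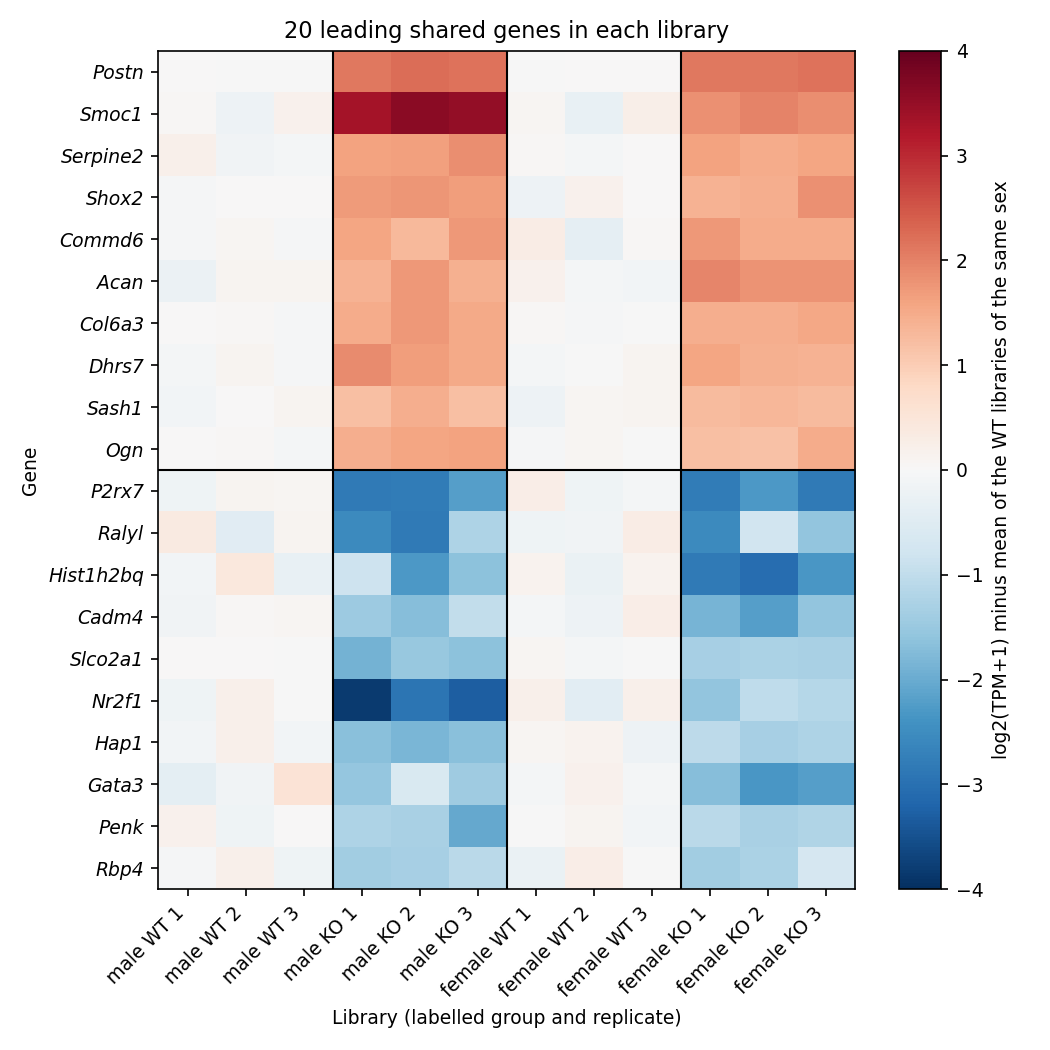
The 20 leading shared genes (10 higher above the line, 10 lower below it) in each of the 12 libraries, coloured by log2(TPM+1) minus the mean of the 3 WT libraries of the same sex. The 6 KO columns are red for the 10 higher and blue for the 10 lower genes, and the WT columns are pale. The genes were picked for no overlap in either pair, so this split was set by the choice.

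Extracellular matrix genes were counted from lists of collagens, glycoproteins and enzymes. Over all genes tested, 9.11% were shared and higher, 11.7% shared and lower, and the median log2 fold change was −0.02 (these background values hold for every list that follows). Of 28 collagen chains tested, 11 rose (39.3%) and 1 fell (3.57%), with a list median of 0.23. This median was 0.030 without a filter on low values and 0.36 with a filter at 5 TPM, and without the mean-variance trend 3 chains fell. The chains that rose include the fibrillar Col1a1, Col3a1 and Col5a1 and all 3 chains of collagen VI that were tested. Col6a1 stood at 293, 318 and 300.0 TPM in the male WT libraries, 675, 710.1 and 695 in the male KO, 173, 182 and 184 in the female WT and 322, 318 and 332 in the female KO. Both pairs were clearly apart, the male pair by more (1.19) than the female (0.85), with an adjusted p of the difference of 0.00144 (limma, Benjamini-Hochberg). Col1a1, the most abundant fibrillar chain, stood at 2937, 3348 and 3268 TPM in the male WT libraries, 4627, 5047 and 4745 in the male KO, 2082, 2181 and 2118 in the female WT and 3272, 3155 and 3255 in the female KO. KO and WT did not overlap within either pair, and the size was 0.60 in the male and 0.60 in the female pair. Col26a1 was the chain that fell, by 1.14 on the log2 scale, and its call was lost with a pseudocount of 0.1 (adjusted p from 0.00751 to 0.0594 over the settings, limma, Benjamini-Hochberg).

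Among 44 matrix glycoproteins and proteoglycans, 25 (56.8%) were shared and higher and 4 (9.09%) lower, with a median of 0.29. Eln, the elastin precursor, stood at 3.58, 4.67 and 4 TPM in the male WT libraries, 10.1, 9.24 and 9.03 in the male KO, 2.90, 3.57 and 3.32 in the female WT and 9.36, 10.3 and 9.85 in the female KO. Emilin1, which lies along elastic fibres, stood at 35.9, 43.3 and 32.4 TPM in the male WT libraries, 121, 121 and 111 in the male KO, 25.0, 25.3 and 22.3 in the female WT and 42.7, 37.3 and 37.7 in the female KO. Both elastic-fibre genes were apart in each pair, and Emilin1 rose further in male cells (1.64 against 0.68, adjusted p of the difference = 6.02e-04, limma, Benjamini-Hochberg). The others that rose include the fibulins Fbln2 and Fbln5, the microfibril genes Fbn2, Ltbp2 and Ltbp3, and the small proteoglycans Dcn, Bgn, Fmod and Aspn. The pairs could differ in size, as Aspn rose by 0.29 in the male and 2.43 in the female pair and Ltbp2 by 1.35 and 0.45. Efemp1, Tnc, Nid2 and Lama2 fell, with log2 fold changes of −0.30, −0.45, −0.61 and −0.47. The list of collagen-modifying enzymes, proteases and their inhibitors held 45 tested genes, of which 17 rose (37.8%) and 5 fell (11.1%), with a median of 0.18. Adamts2, which trims fibrillar procollagens, rose by 0.94 (log2), Mmp19, a secreted metalloproteinase, by 0.96, and Serpinf1, a secreted serpin, by 1.07. The prolyl hydroxylases P4ha1, P4ha2 and P4ha3, the lysyl hydroxylases Plod1 and Plod2 and the collagen chaperone Serpinh1 also rose, while Mmp3, Mmp9, Timp2, Adam19 and Plaur fell.

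Chaperones and disulfide isomerases fold new proteins in the ER. Of 26 ER chaperones and folding enzymes, 13 (50%) were shared and higher and 0 lower, with a median of 0.15. Pdia5, a disulfide isomerase, stood at 94.2, 91.1 and 93.3 TPM in the male WT libraries, 120.4, 119 and 122 in the male KO, 91.1, 89.0 and 97.0 in the female WT and 116, 118 and 113 in the female KO. Its 6 KO libraries lay above its 6 WT libraries with a narrow spread, for a log2 fold change of 0.35 (standard error 0.029, adjusted p = 9.55e-06, limma, Benjamini-Hochberg). Pdia4 rose by 0.28 (log2), and P4hb, which doubles as a subunit of collagen prolyl hydroxylase, by 0.28. Calr, a calcium-binding lectin chaperone, rose by 0.23, less in the male (0.15) than in the female pair (0.31). The major chaperones Hspa5 and Hsp90b1 were among the shared genes too, at 0.15 and 0.15, the latter at 0.013 in the male and 0.30 in the female pair. Without the sex term 7 genes of the list were higher.

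Misfolded proteins are drawn out of the ER and degraded, and new ones enter through its translocation pore. Of 27 genes of these 2 tasks, 10 (37.0%) rose and 0 fell, with a median of 0.11. Edem1, which extracts misfolded glycoproteins from folding cycles, stood at 21.7, 25.6 and 23.8 TPM in the male WT libraries, 44.2, 39.6 and 42.2 in the male KO, 25.0, 26.1 and 32.6 in the female WT and 38.4, 44.0 and 42.4 in the female KO. Herpud1, a scaffold of the degradation complex, stood at 31.7, 33.6 and 28.8 TPM in the male WT libraries, 60.1, 57.8 and 56.2 in the male KO, 34.5, 36.9 and 34.4 in the female WT and 47.9, 45.6 and 46.8 in the female KO. Both were apart in each pair, and Herpud1 rose more in male (0.87) than in female cells (0.40; adjusted p of the difference = 0.00300, limma, Benjamini-Hochberg). Of 17 stress sensors and factors, 5 were higher (29.4%) and 1 lower (5.88%). This list had a median of 0.10, which was 0.31 in the male and −0.11 in the female pair, so its genes did not share a direction as a group. Xbp1, a factor that drives ER chaperone genes once its mRNA is spliced, stood at 66.9, 66.4 and 64.4 TPM in the male WT libraries, 89.7, 93.4 and 88.5 in the male KO, 56.1, 61.4 and 60.6 in the female WT and 89.7, 83.8 and 79.0 in the female KO, without overlap in either pair. Gene-level TPM do not separate its spliced form. Creb3l2 rose by 0.50, Creb3l1, a relative that drives secretory and collagen genes, by 0.26, and Ddit4, an inhibitor of mTOR signalling, by 0.48. Eif2ak3, the kinase PERK, rose by 0.28, and Atf6, an ER membrane factor released by stress, fell by 0.14 on the log2 scale.

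Because the shared genes of the folding and degradation lists were all higher, the promoters of both lists were searched for the ER stress response element, which is CCAAT, 9 bases of any kind and CCACG, on both strands (the other strand reads CGTGG, 9 bases and ATTGG). This search was chosen after the values were seen. Promoters run from 250 bases before to 50 after the start of a gene and come from RefSeq on GRCm38.p6. The element was in 0.119% of all 32851 promoters and in 0.181% of the 9396 tested genes with a promoter. Of the 26 chaperone and folding genes, 20 matched a promoter and 7 of these held it: 5 of 11 shared genes (Hspa5, Hsp90b1, Calr, Pdia6 and Dnajc3) and 2 of 9 others (Canx and Creld2). Of the 27 degradation and translocation genes, 22 matched, and it was in Syvn1, 1 of 8 shared genes, and in Derl3, 1 of 14 others. A match describes the letters only and is not evidence of a bound site, and a promoter without it says nothing about the factor. The 3 shown are those of the matched shared genes with the largest change in the pair that moved less, with the element in capitals: Calr at chr8:84846882-84847181 on the minus strand, Dnajc3 at chr14:118937682-118937981 on the plus strand, and Pdia6 at chr12:17266339-17266638 on the plus strand.
Calr: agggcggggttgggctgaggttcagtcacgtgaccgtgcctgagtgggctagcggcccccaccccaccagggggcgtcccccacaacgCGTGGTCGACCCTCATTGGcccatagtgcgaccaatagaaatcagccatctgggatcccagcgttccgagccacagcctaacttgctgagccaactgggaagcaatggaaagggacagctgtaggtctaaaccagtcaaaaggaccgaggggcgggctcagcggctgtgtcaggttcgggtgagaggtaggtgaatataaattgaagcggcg
Dnajc3: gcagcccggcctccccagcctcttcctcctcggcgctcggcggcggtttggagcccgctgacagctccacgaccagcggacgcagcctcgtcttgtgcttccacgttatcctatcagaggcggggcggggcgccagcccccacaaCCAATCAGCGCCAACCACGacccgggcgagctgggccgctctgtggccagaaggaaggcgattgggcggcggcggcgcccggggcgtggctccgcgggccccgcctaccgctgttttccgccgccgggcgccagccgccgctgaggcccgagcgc
Pdia6: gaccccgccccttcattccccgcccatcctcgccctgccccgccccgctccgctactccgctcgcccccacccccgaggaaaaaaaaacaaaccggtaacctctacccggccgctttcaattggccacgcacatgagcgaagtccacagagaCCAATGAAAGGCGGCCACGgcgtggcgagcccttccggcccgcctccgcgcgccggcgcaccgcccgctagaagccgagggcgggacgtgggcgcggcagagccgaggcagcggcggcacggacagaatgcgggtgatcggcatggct
Among their genes, Dnajc3, a co-chaperone that restrains PERK, stood at 36.3, 37.1 and 36.0 TPM in the male WT libraries, 39.4, 42.2 and 40.4 in the male KO, 34.0, 33.8 and 36.7 in the female WT and 38.3, 38.6 and 40.3 in the female KO, and Pdia6, a disulfide isomerase, at 279.9, 283 and 287 TPM in the male WT libraries, 316, 309 and 318 in the male KO, 225, 229 and 236 in the female WT and 321, 314 and 316 in the female KO. Calr was far more abundant, at 1057, 1054 and 1058 TPM in the male WT libraries, 1173, 1205 and 1151 in the male KO, 872, 897 and 901 in the female WT and 1103, 1075 and 1121 in the female KO. For each of the 3 genes, KO and WT libraries did not overlap in either pair.

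Cholesterol is built from acetyl-CoA through a chain of enzymes. Of 20 genes of cholesterol synthesis, 9 (45%) were shared and higher and 0 lower, with a median of 0.16 (0.15 in the male and 0.21 in the female pair). Those that rose run from Acat2 and Hmgcs1, which build the first intermediates, over Idi1, Fdps, Fdft1 and Sqle to Cyp51 and Nsdhl, which act on sterols. Fdps, which makes farnesyl diphosphate, stood at 118, 115 and 109 TPM in the male WT libraries, 143, 139.9 and 153 in the male KO, 110.0, 104 and 112 in the female WT and 139, 140.1 and 146 in the female KO. All KO libraries exceeded all WT libraries, for a log2 fold change of 0.37 (standard error 0.034, adjusted p = 2.15e-05, limma, Benjamini-Hochberg). Cyp51, the lanosterol demethylase, stood at 43.2, 34.7 and 37.4 TPM in the male WT libraries, 50.3, 51.2 and 41.3 in the male KO, 36.8, 36.1 and 38.7 in the female WT and 54.0, 49.6 and 52.5 in the female KO. Its male groups overlapped, since the lowest male KO library fell under the highest male WT library, while its female groups did not. Hmgcs1 rose by 0.32 and Idi1 by 0.32 (log2).

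Of 15 genes of sterol uptake and its control, 9 (60%) rose and 0 fell, with a median of 0.30. Insig1, which holds SREBP in the ER, stood at 27.0, 26.3 and 27.1 TPM in the male WT libraries, 33.2, 34.0 and 32.4 in the male KO, 26.6, 27.2 and 29.7 in the female WT and 37.5, 35.4 and 41.5 in the female KO. Srebf2, which encodes the SREBP for cholesterol genes, stood at 78.4, 86.0 and 83.6 TPM in the male WT libraries, 105, 112 and 109.7 in the male KO, 94.9, 82.4 and 84.3 in the female WT and 103, 97.8 and 100.1 in the female KO. Both were higher in every KO library than in any WT library of the same sex. Stard4, a cytosolic sterol carrier, rose by 0.30, Mylip, a ubiquitin ligase, by 0.32, and Npc1, which exports cholesterol from lysosomes, by 0.36. Lpl, a lipase of lipoproteins, was low, at 1.06, 1.53 and 1.55 TPM in the male WT libraries, 3.41, 1.88 and 2.37 in the male KO, 2.74, 2.28 and 2.35 in the female WT and 3.15, 4.88 and 3.27 in the female KO. Scarb1, an HDL receptor, rose by 0.19. The call of Lpl was lost without the sex term (adjusted p from 0.0141 to 0.106 over the settings, limma, Benjamini-Hochberg).

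A core of the sterol regulatory element, TCAC, 1 base of any kind and CCAC (on the other strand GTGG, 1 base and GTGA), was likewise searched after values were seen. It was in 1.24% of all promoters and 1.43% of tested genes with one. Of 20 cholesterol synthesis genes, 15 matched a promoter and 1 of these, Hmgcs1, held it, and of 18 uptake genes 9 matched and 0 held it. A window without these letters says nothing about SREBP. The Hmgcs1 promoter lies at chr13:119690101-119690400 on the plus strand, with the core in capitals.
Hmgcs1: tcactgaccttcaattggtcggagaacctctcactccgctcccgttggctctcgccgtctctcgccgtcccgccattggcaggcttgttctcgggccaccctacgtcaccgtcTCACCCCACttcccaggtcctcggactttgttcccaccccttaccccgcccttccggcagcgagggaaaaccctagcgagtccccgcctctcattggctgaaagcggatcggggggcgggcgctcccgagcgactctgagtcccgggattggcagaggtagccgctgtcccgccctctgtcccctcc
Hmgcs1 itself stood at 47.2, 49.7 and 53.2 TPM in the male WT libraries, 62.6, 73.9 and 59.1 in the male KO, 49.3, 50.9 and 49.2 in the female WT and 58.3, 62.0 and 61.0 in the female KO, higher in every KO library than in the WT libraries of the same sex.

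Interferon-stimulated genes are turned on by cells against viruses. Of 36 interferon and antigen-presentation genes tested, 19 (52.8%) were shared and lower and 1 (2.78%), the peptide transporter gene Tap2, was higher. The median was −0.48, −0.59 in the male and −0.22 in the female pair. Isg15, a ubiquitin-like modifier, stood at 234, 250.1 and 215 TPM in the male WT libraries, 68.0, 66.6 and 65.6 in the male KO, 121, 135 and 116 in the female WT and 64.2, 56.0 and 66.9 in the female KO. WT libraries were higher in male than in female cells, and the KO libraries of both sexes came down to a like level. Its log2 fold change was −1.38 (standard error 0.13, adjusted p = 2.16e-05, limma, Benjamini-Hochberg). Usp18, which removes Isg15 from proteins, stood at 44.2, 43.2 and 45.9 TPM in the male WT libraries, 10.5, 11.6 and 12 in the male KO, 21.0, 27.4 and 22.3 in the female WT and 11.9, 12.2 and 14.6 in the female KO. Oasl2, an oligoadenylate synthetase-like protein, stood at 27.3, 31.7 and 25.6 TPM in the male WT libraries, 6.73, 9.09 and 5.37 in the male KO, 11.6, 14.3 and 12.2 in the female WT and 3.72, 6.92 and 8.89 in the female KO. Usp18 and Oasl2 fell without overlap in both pairs. Gbp3, a guanylate-binding protein, fell by 1.17 on the log2 scale. The RNA sensors Ifih1 and Ddx58 fell by 0.77 and 0.65 on the log2 scale, and among the transcription factors of the response Irf9 fell by 0.56 and Irf7 by more, from 25.3, 29.9 and 30.4 to 8.21, 9.18 and 7.42 TPM in male and from 9.78, 12.1 and 13.6 to 9.41, 6.35 and 7.93 TPM in female cells. The Ifit genes, Gbp2 and Gbp3, Oas1a, and H2-K1 and H2-D1 have close copies that can share reads, so their single values are uncertain.

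The core of the interferon-stimulated response element, which is GAAA, 2 bases of any kind and GAAA (on the other strand TTTC, 2 bases and TTTC), was chosen after the values were seen. It was in 3.44% of all promoters and 3.55% of tested genes with one. Of the 40 listed interferon and antigen-presentation genes, 29 of those tested matched a promoter and 12 held the core: 10 of 17 shared genes and 2 of 12 others (Stat2 and B2m). The 10 were Ifit1, Ifit3, Ifit3b, Isg15, Oas1a, Ifih1, Ddx58, Bst2, Gbp2 and Gbp3. Shown, with the core in capitals and overlapping matches merged, are the 3 with the largest change in the pair that moved less: Isg15 at chr4:156200769-156201068 on the minus strand, Gbp3 at chr3:142559794-142560093 on the plus strand, and Ifit1 at chr19:34640639-34640938 on the plus strand.
Isg15: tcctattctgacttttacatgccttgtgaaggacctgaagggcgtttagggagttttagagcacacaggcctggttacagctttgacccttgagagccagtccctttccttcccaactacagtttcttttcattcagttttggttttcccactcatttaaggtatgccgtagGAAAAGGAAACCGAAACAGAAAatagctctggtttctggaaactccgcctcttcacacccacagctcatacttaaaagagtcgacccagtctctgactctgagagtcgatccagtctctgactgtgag
Gbp3: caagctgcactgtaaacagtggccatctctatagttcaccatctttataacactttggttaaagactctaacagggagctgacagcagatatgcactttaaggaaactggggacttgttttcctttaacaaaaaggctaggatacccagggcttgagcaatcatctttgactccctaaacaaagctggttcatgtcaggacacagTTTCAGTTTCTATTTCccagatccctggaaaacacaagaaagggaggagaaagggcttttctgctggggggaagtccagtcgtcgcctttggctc
Ifit1: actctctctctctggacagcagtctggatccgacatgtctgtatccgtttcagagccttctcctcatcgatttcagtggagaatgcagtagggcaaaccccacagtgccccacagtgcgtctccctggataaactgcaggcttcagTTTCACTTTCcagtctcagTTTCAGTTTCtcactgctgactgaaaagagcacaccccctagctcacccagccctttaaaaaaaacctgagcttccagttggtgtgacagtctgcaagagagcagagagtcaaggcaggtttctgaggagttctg
Ifit1, an antiviral protein that binds foreign RNA, stood at 18.3, 19.8 and 16.4 TPM in the male WT libraries, 5.47, 5.66 and 6.48 in the male KO, 9.53, 9.95 and 8.72 in the female WT and 5.72, 5.42 and 7.59 in the female KO, without overlap in either pair.

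**Figure D3:**
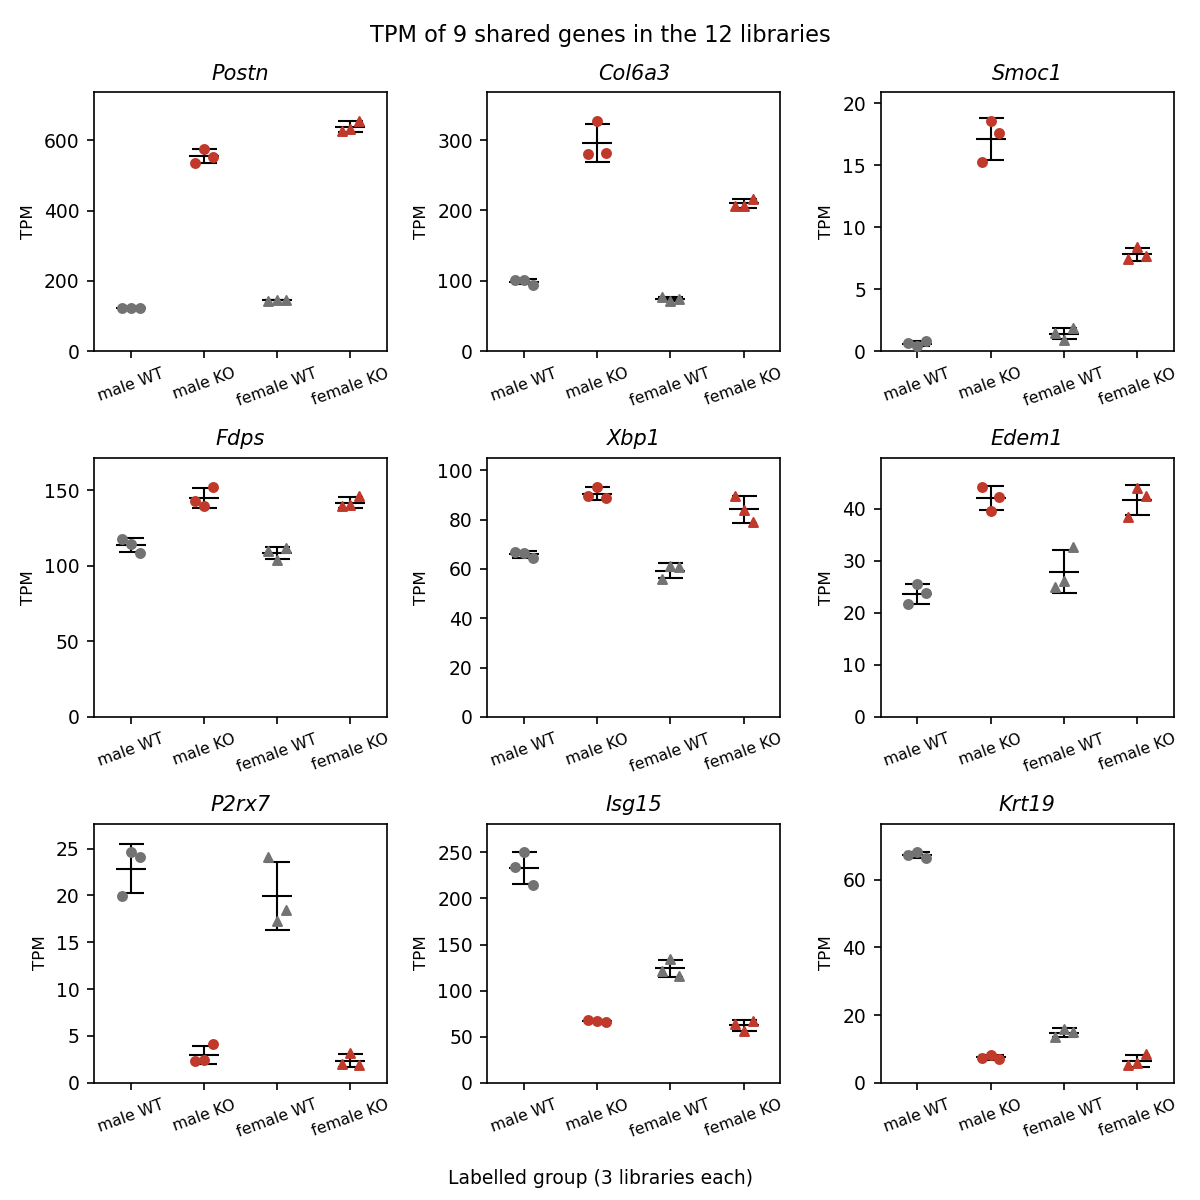
TPM of 9 shared genes in the 12 libraries, by labelled group, with circles for male and triangles for female libraries and a bar for the mean ± SD of 3 libraries. Postn, Col6a3, Smoc1, Fdps, Xbp1 and Edem1 were higher and P2rx7, Isg15 and Krt19 lower in KO, with no overlap in either pair.

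Signalling genes moved in both directions. Of 37 growth factors and receptors, 12 fell (32.4%) and 6 rose (16.2%), with a median of 0.010 (−0.062 in the male and −0.10 in the female pair) that was negative in 9 of the other settings. Without the sex term 3 rose. Areg, a ligand of the EGF receptor, stood at 5.56, 7.10 and 6.66 TPM in the male WT libraries, 3.17, 1.26 and 3.34 in the male KO, 11.3, 11.7 and 11.4 in the female WT and 6.12, 4.09 and 5.72 in the female KO. Ereg and Hbegf, other ligands of that receptor family, fell as well, by 0.62 and 0.27 on the log2 scale. Igf2, an embryonic growth factor, stood at 237, 244 and 222 TPM in the male WT libraries, 141, 162 and 142 in the male KO, 331, 341 and 334 in the female WT and 174, 155 and 149 in the female KO, lower in KO without overlap and by more in the female pair (−1.07) than in the male (−0.66; adjusted p of the difference = 0.0116, limma, Benjamini-Hochberg). Fgf2, a fibroblast growth factor, fell by 0.81 on the log2 scale. The receptor genes Pdgfra and Pdgfrb rose, and Pdgfrb stood at 55.4, 62.0 and 59.8 TPM in the male WT libraries, 118, 129 and 125 in the male KO, 61.0, 62.2 and 62.7 in the female WT and 113, 111 and 112 in the female KO, every KO library lying well above every WT library.

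In the TGF-beta and BMP list, 9 of 37 tested genes rose (24.3%) and 4 fell (10.8%), with a median of 0.043. Without the sex term the counts were 4 higher and 1 lower. Tgfb3, a TGF-beta ligand, rose by 0.48 and Gdf15, a distant relative released by stressed cells, by 0.86. Grem1, a BMP antagonist, fell by 0.65 on the log2 scale and its call was lost without the sex term (adjusted p from 9.61e-08 to 0.136 over the settings, limma, Benjamini-Hochberg). Smad7, Fst and Id1 were the others that fell (−0.19, −0.53 and −0.26). Of 36 Wnt pathway genes, 4 rose (11.1%) and 7 fell (19.4%), with a median of −0.061. Dkk3, a secreted protein of the Dickkopf family, stood at 5.59, 6.21 and 5.88 TPM in the male WT libraries, 34.1, 33.3 and 35.9 in the male KO, 8.96, 8.13 and 8.76 in the female WT and 15.7, 14.2 and 16.5 in the female KO. Wnt10b, a Wnt ligand, stood at 19, 26.9 and 24.0 TPM in the male WT libraries, 1.24, 1.52 and 2.30 in the male KO, 9.74, 9.24 and 9.36 in the female WT and 6.45, 5.89 and 5.91 in the female KO. Dkk3 rose and Wnt10b fell in both pairs without overlap, and both by more in male cells, with adjusted p-values of the difference of 2.50e-06 and 1.02e-05 (limma, Benjamini-Hochberg). Wnt4, Ryk and Sfrp1 were the others that rose (0.48, 0.18 and 0.89), Sfrp1 by 1.73 in the male against 0.057 in the female pair. The higher count was 2 without any 1 of the 6 male libraries. Tcf7, a factor that acts with beta-catenin, fell by 0.57 on the log2 scale and Fzd4, a Wnt receptor, by 0.48.

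Among 23 chemokines, cytokines and inflammatory genes, 9 rose (39.1%) and 4 fell (17.4%), with a median of 0.19. The higher count was 3 without the sex term. Cxcl14, a chemokine of resident tissue cells, stood at 8.82, 9.25 and 9.81 TPM in the male WT libraries, 53.5, 52.1 and 51.2 in the male KO, 17.0, 14 and 14.8 in the female WT and 35.3, 30.6 and 33.6 in the female KO, apart in each pair. Cxcl10, a chemokine that interferon turns on, fell by 0.70 on the log2 scale, Ptgs2, which makes prostaglandin precursors, fell by 0.82, and Tnfaip3, a brake on NF-kappaB, fell by 0.64. Ccl5 was the other that fell (−0.46). Ccl2, Ccl7, Cxcl1, Cxcl5 and Cxcl12, which attract leukocytes, rose as well.

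Adhesion and contraction genes were split. Of 15 integrin genes, 2 rose (13.3%) and 3 fell (20%), with a median of −0.088. Itga11, a collagen receptor subunit of fibroblasts, rose by 0.83 (log2), and Itga2, a subunit of another collagen receptor, fell by 1.45. Itga3 and Itga6, of laminin receptors, fell by 0.75 and 0.56 on the log2 scale, and Itgb5, of a vitronectin receptor, rose by 0.28. Focal adhesion components numbered 30, with 5 higher and 5 lower (each 16.7%) and a median of −0.048. Vcl, which links talin to actin, fell by 0.26 and Fermt2, an integrin activator, by 0.24, while Tln2, a talin, rose by 0.55. Parvb and Flnc also fell and Parva, Tns1, Tns2 and Flna also rose, so parvin and filamin genes took both directions. The higher count was 1 and the lower count 3 without the sex term, and the lower count was 8 with the mean of both pair contrasts. Leaving out 1 library gave 2 higher without female WT replicate 3 and 3 without each of male WT replicate 3, male KO replicate 2 and female KO replicates 2 and 3. The call of Parvb was lost without the sex term (adjusted p from 1.17e-04 to 0.0950 over the settings, limma, Benjamini-Hochberg). Of 24 contractile and myofibroblast genes, 2 rose (8.33%) and 7 fell (29.2%), with a median of −0.042. Cnn1, a calponin of smooth muscle, fell by 0.58 on the log2 scale and Ccn2, a matricellular protein, by 0.49. Tpm4, a tropomyosin, and Myl9, a myosin light chain, rose by 0.19 and 0.32, the latter called only with the sex term (adjusted p from 1.39e-05 to 0.119 over the settings, limma, Benjamini-Hochberg). In this list 6 genes were higher under median-of-ratios scaling, 5 with the mean of both pair contrasts or without male KO replicate 2, and 4 without male WT replicate 2, while 3 were lower without the sex term.

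Energy metabolism was read from several lists. Of 24 glycolysis genes, 3 rose (12.5%) and 8 fell (33.3%), with a median of −0.054. The genes that fell include Hk1, Gpi1, Pfkp, Aldoa and Eno1, whose enzymes stand at steps along the pathway, and the log2 fold changes were −0.19, −0.14, −0.33, −0.086 and −0.090. Slc2a3, a glucose transporter, fell by 0.64 on the log2 scale (adjusted p from 0.00555 to 0.0580 over the settings, limma, Benjamini-Hochberg, missing the threshold without the sex term). Pfkl, a phosphofructokinase, and Pfkfb4, whose enzyme makes an activator of phosphofructokinase, rose by 0.33 and 0.42. Ldhb, a lactate dehydrogenase subunit, stood at 25.8, 25.3 and 22.2 TPM in the male WT libraries, 109.5, 107 and 106 in the male KO, 30.4, 22.0 and 29.8 in the female WT and 29.2, 31.4 and 31.7 in the female KO. It met the rule for shared genes, but the change was 2.09 in the male and 0.17 in the female pair, where the groups overlapped (adjusted p of the difference = 6.94e-06, limma, Benjamini-Hochberg). The lower count of glycolysis was 2 without the sex term, 5 under median-of-ratios scaling, 4 without each of male WT replicate 3, male KO replicate 3 and female KO replicate 3, and 5 without each of male KO replicates 1 and 2, female WT replicates 1, 2 and 3 and female KO replicate 1. Of 36 genes of the TCA cycle and pyruvate dehydrogenase, 6 rose (16.7%) and 3 fell (8.33%), with a median of 0.032. Pdk1, a kinase that switches pyruvate dehydrogenase off, stood at 3.53, 3.85 and 3.26 TPM in the male WT libraries, 10.2, 9.95 and 8.74 in the male KO, 2.55, 3.44 and 1.76 in the female WT and 5.41, 4.46 and 3.77 in the female KO, apart in each pair. Pdhx, a structural part of that complex, fell by 0.27 on the log2 scale. Idh2, a mitochondrial isocitrate dehydrogenase and a known substrate of Sirt3, rose by 0.15, while Idh3a and Idh3b, subunits of another isocitrate dehydrogenase, fell by 0.082 and 0.18 on the log2 scale. In the pentose phosphate pathway, 3 of 10 genes rose (30%) and 0 fell, with a median of 0.069, among them G6pdx, its entry enzyme, by 0.21, Pgls, of its next step, by 0.23, and H6pd, its counterpart in the ER, by 0.26. The change of H6pd was 0.50 in the male and 0.017 in the female pair. Calls of Pfkfb4 and H6pd were lost in some fits that left out 1 library, with adjusted p-values (limma, Benjamini-Hochberg) from 0.00568 to 0.0839 and from 8.26e-04 to 0.181 over the settings.

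Of 22 genes of fatty acid oxidation, 4 rose (18.2%) and 2 fell (9.09%), with a median of 0.077. The carnitine palmitoyltransferases moved apart. Cpt1a, which loads fatty acids onto carnitine at the outer membrane, fell by 0.32 on the log2 scale, and Cpt2, which takes them off at the inner membrane, rose by 0.26. Acadvl, which oxidizes very long chains, rose by 0.26, Acads, for short chains, by 0.25, and Acaa2, a thiolase of the last step, by 0.18, while Cpt1c fell by 0.28 on the log2 scale. Without the sex term the call of Acaa2 was lost (adjusted p from 0.00672 to 0.0580 over the settings, limma, Benjamini-Hochberg). Fatty acid synthesis and desaturation had 20 genes, with 5 higher (25.0%) and 1 lower (5%) and a median of 0.14. Scd2, a stearoyl-CoA desaturase, rose by 0.38 and the desaturase-family genes Fads1, Fads2 and Fads3 by 0.31, 0.33 and 0.41. Lpin1, a phosphatidate phosphatase, rose by 0.32 and Elovl7, an elongase, fell by 0.34, but the call of Lpin1 was lost in all 12 fits that left out 1 library and that of Elovl7 in 8 (adjusted p from 0.00264 to 0.0970 and from 0.00801 to 0.426 over the settings, limma, Benjamini-Hochberg). Of 36 antioxidant genes, 8 rose (22.2%) and 1 fell (2.78%), with a median of 0.088. Prdx4, the peroxiredoxin of the ER, rose by 0.28, and Prdx6, a cytosolic one, by 0.23. The Gstm genes rose by 0.40 (Gstm1) and 0.38 (Gstm2) but are close copies that can share reads. Without the sex term, Gstm1, Gstm2 and Prdx6 were not called (adjusted p up to 0.0574, 0.0988 and 0.282, and down to 6.89e-04, 0.0166 and 1.63e-04 over the settings, limma, Benjamini-Hochberg). Nqo1, a quinone reductase, was the antioxidant gene that fell, with −0.30, from 25.7, 22.9 and 22.3 to 17.8, 17.6 and 15.1 TPM in male cells, while the female groups overlapped.

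Genes for the mitochondrion itself were counted in 3 classes, between which no test was made. Of 78 mitochondrial ribosomal protein genes, 16 (20.5%) fell and 2 (2.56%) rose, with a median of −0.080. Mrps18c fell by 0.28, Mrps31 by 0.27 and Mrpl45 by 0.26 on the log2 scale, the male and female values lying close together (−0.28 and −0.29 for Mrps18c). Mrpl42 and Mrpl52 were those that rose (0.12 and 0.10). Nuclear genes for respiratory chain subunits numbered 75, with 8 higher (10.7%), 1 lower (1.33%) and a median of 0.027, the higher share being near that over all genes. Cox6a1 and Cox7b, subunits of cytochrome c oxidase, rose by 0.13 and 0.13, and Uqcrc2, of complex III, fell by 0.14 on the log2 scale. The higher count was 13 under median-of-ratios or quantile scaling, 2 without the sex term, and 5 without each of male WT replicate 3, male KO replicates 1 and 3 and female KO replicates 1 and 2. The 18 mitochondrial chaperones and proteases had 0 higher and 3 lower (16.7%), and their median of −0.018 (0.017 in the male and −0.032 in the female pair) turned positive under median-of-ratios scaling. All 3 calls, of Hspd1, Afg3l2 and Phb2, were lost in some fits that left out 1 library, with adjusted p-values (limma, Benjamini-Hochberg) of up to 0.0905 (without male WT replicate 3), 0.0585 (without male KO replicate 3) and 0.0506 (without male WT replicate 3), against 0.0399, 0.0240 and 0.0212.

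Of 40 cell cycle genes tested, 5 rose (12.5%) and 9 fell (22.5%), with a median of −0.057 (−0.12 in the male and 0.026 in the female pair). Those that rose were Mcm3, Mcm5 and Mcm6 of the replicative helicase, Pcna, the sliding clamp, and Rrm2, which makes deoxynucleotides, at 0.10, 0.13, 0.13, 0.090 and 0.14. Those that fell include Ccnb1, a mitotic cyclin, Aurka, a kinase of the spindle, Birc5, of the chromosomal passenger complex, and the mitotic factor Foxm1, at −0.21, −0.20, −0.20 and −0.18. The higher count was 2 without female KO replicate 2 and 3 without each of female WT replicates 2 and 3 and female KO replicates 1 and 3. Of 24 p53 and checkpoint genes, 5 rose and 5 fell (each 20.8%), and the median of −0.013 (−0.070 in the male and 0.0029 in the female pair) turned positive under median-of-ratios scaling. Perp, a p53 target of cell junctions, fell by 1.25 on the log2 scale, while Phlda3, another target, rose by 0.38. Sesn2, Gadd45a, Eda2r and Cdkn1a, the p21 gene, were the others that rose (0.40, 0.50, 0.38 and 0.28), and Cdkn1b, Cdkn2a, Bax and Gadd45b the others that fell (−0.15, −0.20, −0.090 and −0.38). Gadd45a stood at 0.96 in the male and 0.043 in the female pair. Without the sex term 2 rose and 2 fell. The lower count was 3 under median-of-ratios scaling and without each of male WT replicates 1 and 2, male KO replicate 3, female WT replicate 1 and female KO replicate 2. The call of Cdkn1a was lost without the sex term (adjusted p from 8.29e-05 to 0.300 over the settings, limma, Benjamini-Hochberg).

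Genes of amino acid synthesis and transport that Atf4 drives had 8 of 23 higher (34.8%) and 0 lower. The list median of 0.13 combines unlike pairs, as it was 0.48 in the male and −0.084 in the female pair. Pycr1, which makes proline, rose by 1.26 in the male and stood at 0.10 in the female pair (adjusted p of the difference = 1.03e-04, limma, Benjamini-Hochberg). Without any 1 of the 6 male libraries, or without female KO replicate 3, 5 genes of the list were higher, and 4 without the sex term. Slc1a5, a glutamine transporter, rose by 0.37. Of 31 lysosomal genes, 1 rose (3.23%) and 5 fell (16.1%), with a median of −0.021 (0.045 in the male and −0.11 in the female pair), but median-of-ratios scaling left 2 in each direction. The lower count was 3 without each of male KO replicate 2, female WT replicates 2 and 3 and female KO replicate 1. Lipa, which frees cholesterol in lysosomes, was the one that rose, by 0.35. Those that fell were Lamp1, Hexa, Gusb, Grn and Atp6v1h (−0.090, −0.14, −0.12, −0.22 and −0.12), and the call of Gusb was lost in some fits that left out 1 library (adjusted p from 0.0146 to 0.0827 over the settings, limma, Benjamini-Hochberg). Cytosolic ribosomal protein genes had 2 of 78 higher (2.56%) and 4 lower (5.13%). Rps4x and Rpl37a were those that rose (0.18 and 0.14) and Rpl27, Rpl4, Rpl5 and Rps6 those that fell (−0.19, −0.059, −0.19 and −0.075). Their median was −0.0034 (−0.047 in the male and 0.040 in the female pair) and turned positive under median-of-ratios scaling, and reads of these genes can be shared with processed copies. With the mean of both pair contrasts 6 were higher and 7 lower, and 5 and 4 were higher without male WT replicate 1 and male KO replicate 2. The lower count was 1 without male WT replicate 3 and 2 without each of male WT replicate 2 and male KO replicates 1 and 3. The calls of Rpl5 and Rpl4 were lost in some fits that left out 1 library (adjusted p from 0.0230 to 0.184 and from 0.00790 to 0.246 over the settings, limma, Benjamini-Hochberg).

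Hox genes record the position of a cell along the body axis. Of 32 tested, 12 (37.5%) were shared and higher and 1 (3.12%) lower. The 32 include Hoxb5, Hoxc10, Hoxc11 and Hoxc12, which passed the filter through their female KO values, and the 12 include Hoxb5 and Hoxc10. No median of the list is therefore given. The higher count was 2 without the sex term, against 1544 genes shared overall in that fit, and 7 without female KO replicate 2. Those that rose came from the Hoxb (4 of 8 tested), Hoxc (6 of 8) and Hoxd (2 of 5) clusters. Hoxc10, 1 of the 6, was under 1 TPM in every male library and passed the filter through its female KO values, so its male direction is read near 0. The same low male level holds for Hoxc11 and Hoxc12, which were not among the shared genes. Hoxb5, 1 of the 4 of Hoxb, ran from 0.403 to 1.06 TPM in male libraries and also passed through its female KO values. Hoxc9 moved by 0.078 in the male and 1.71 in the female pair and Hoxb3 by 0.086 and 1.29, with overlapping male groups for both. Hoxb8 and Hoxb9, not shared, fell in male (−0.59 and −0.83) and rose in female cells (0.82 and 1.66). The 2 shared Hoxd genes rose more in the male pair, Hoxd8 by 1.27 against 0.61 and Hoxd9 by 1.21 against 0.26. No median of the Hoxb or the Hoxc cluster is given. The median of Hoxd was −0.053 in the male and 0.33 in the female pair and that of Hoxa 0.36 in the male and −0.31 in the female pair. No test compared the clusters. In the Hoxa cluster 0 of 11 rose and 1 fell, Hoxa13, a gene of the distal limb, at 7.76, 5.19 and 7.12 TPM in the male WT libraries, 1.73, 5.74 and 3 in the male KO, 7.91, 8.84 and 6.60 in the female WT and 3.15, 2.48 and 3.93 in the female KO. Hoxb2, of the hindbrain and anterior trunk, stood at 4.42, 3.24 and 4.14 TPM in the male WT libraries, 10.2, 10.3 and 6.89 in the male KO, 9.27, 10.9 and 7.12 in the female WT and 17.8, 18.7 and 17.4 in the female KO. Hoxb2 was apart in each pair, while male WT and KO libraries overlapped in Hoxa13. Hoxc6 rose by 0.85 and Hoxb7 by 0.87 (log2), but without the sex term neither was called (adjusted p from 7.28e-05 to 0.145 and from 0.00104 to 0.274 over the settings, limma, Benjamini-Hochberg).

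Markers of cell types were read in the same way, though in bulk RNA fewer cells of a type and less RNA per cell cannot be told apart. Of 12 fibroblast markers, 11 were tested and 7 rose (63.6%), with a median of 0.60. Their summed level was 10550.3, 11709.5 and 11342 TPM in the male WT libraries, 12921, 13670.4 and 13254 in the male KO, 8480.2, 8619 and 8629 in the female WT and 11110.0, 10829.5 and 11098 in the female KO, with Col1a1 the most abundant except in female WT, where Vim was. The sum was higher in KO in each pair, but not each marker was. Of the 4 not called, Col1a2 stood at 1233, 1365 and 1311 TPM in the male WT libraries, 1256, 1308 and 1289 in the male KO, 996, 1041 and 1024 in the female WT and 1446, 1386 and 1427 in the female KO, flat in male and higher in female KO cells. S100a4 stood at 1164, 1165 and 1058 TPM in the male WT libraries, 960.3, 967 and 953 in the male KO, 257, 211 and 254 in the female WT and 621, 707 and 664 in the female KO, lower in male and higher in female KO cells. Vim and Fn1 had log2 fold changes of 0.022 and 0.040, and Lum was under 1 TPM in every library. Thy1, a surface protein of fibroblasts, stood at 139, 121 and 135 TPM in the male WT libraries, 221, 237 and 209.5 in the male KO, 117, 142 and 129 in the female WT and 208, 228 and 239 in the female KO. Of 12 epithelial markers, only 4 were tested, and 3 of these fell, Krt19, Krt18 and Epcam, while 8 were under 1 TPM in every library. The epithelial sum was 78.2, 78.9 and 77.3 TPM in the male WT libraries, 9.66, 10.7 and 9.03 in the male KO, 22.1, 25.4 and 24.5 in the female WT and 7.92, 9.64 and 11.9 in the female KO, of which Krt19 was the most abundant. Krt18, the partner keratin, stood at 8.48, 6.52 and 7.42 TPM in the male WT libraries, 0.293, 0.203 and 0.591 in the male KO, 3.76, 3.59 and 5.18 in the female WT and 0.943, 1.07 and 0.833 in the female KO.

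Of 9 cartilage markers, 4 were tested and 3 rose, Col2a1, Acan and Sox9, the factor that starts cartilage genes, by 0.52. Col11a2, the other one tested, was not called and had a negative change in both pairs, with overlapping groups. Of the 9, 4 were under 1 TPM in every library. The cartilage sum was 15.8, 21.0 and 19.5 TPM in the male WT libraries, 54.0, 61.0 and 49.9 in the male KO, 22.6, 20.9 and 26.2 in the female WT and 50.4, 47.7 and 47.9 in the female KO, with Col2a1 the most abundant in KO, Sox9 in male WT and either of them in female WT, and Snorc at 0 in every library. The muscle markers had 5 of 12 tested, with 1 higher, Tnnt3, and 1 lower, Des, which was under 1 TPM in every male library so that its male direction is read near 0, Myf5 at 0 in every library, and a sum of 16.8, 16.1 and 15.7 TPM in the male WT libraries, 14.7, 20.2 and 12.2 in the male KO, 25.5, 27.8 and 28.6 in the female WT and 25.7, 24.0 and 25.5 in the female KO, led by Acta1 in male WT and by Tnnt2 in female KO, with different leaders within the other 2 groups. Tnnt3 was under 1 TPM in every WT library and passed the filter only through its KO values. Endothelial markers had 2 of 9 tested, Erg higher and Kdr lower, with a sum of 5.72, 6.83 and 3.95 TPM in the male WT libraries, 11.1, 12.9 and 13.3 in the male KO, 6.30, 7.05 and 5.71 in the female WT and 2.76, 3.31 and 3.24 in the female KO, led by Erg in male and by Kdr in female libraries. Female Erg stood at 0.475, 0.980 and 0.638 TPM in WT and 0.677, 0.446 and 1.01 in KO. These female groups overlapped, so the female direction of Erg is read near 0. Des, Kdr and Erg lost their calls in some fits that left out 1 library, with adjusted p-values (limma, Benjamini-Hochberg) of up to 0.0606 (without female WT replicate 3), 0.0545 (without female WT replicate 1) and 0.105 (without male KO replicate 3), against 0.0276, 0.0238 and 0.0467.

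Blood and immune markers had 2 of 11 tested and none shared, with Adgre1 at 0 in every library and a sum of 11.8, 8.02 and 9.09 TPM in the male WT libraries, 9.53, 15.4 and 13 in the male KO, 13.3, 10.4 and 13.1 in the female WT and 8.41, 9.94 and 11.5 in the female KO, led by Cd68 in all but female KO replicate 1. Nerve and glia markers had 3 of 11 tested and 1 lower, Map2, by a log2 fold change of −0.62, with a sum of 86.9, 79.9 and 81.7 TPM in the male WT libraries, 54.6, 67.3 and 60.6 in the male KO, 106, 110.4 and 98.7 in the female WT and 71.6, 62.0 and 80.4 in the female KO, led by Map2. Adipocyte markers had 3 of 7 tested and 1 lower, Fabp4, with Cidec and Lep at 0 in every library and a sum of 24.0, 26.0 and 27.6 TPM in the male WT libraries, 23.4, 24.0 and 22.8 in the male KO, 13.8, 16.2 and 14.8 in the female WT and 12.8, 13 and 11.4 in the female KO, led by Cebpa or Pparg. The call of Fabp4 was lost in some fits that left out 1 library (adjusted p of up to 0.0569, without male WT replicate 3, against 0.0240, limma, Benjamini-Hochberg). Female Fabp4 groups overlapped, at 1.34, 2.48 and 2.57 TPM in WT and 2.10, 1.40 and 1.81 in KO. Pparg was not called, but it rose without overlap in each pair. It went from 9.19, 9.17 and 10.09 to 10.11, 10.93 and 10.64 TPM in male cells. In female cells it went from 3.30, 4.01 and 4.38 to 5.03, 5.68 and 4.50 TPM. Cebpa, also tested and not shared, changed sign between the pairs. The fibroblast and cartilage sums were higher and the epithelial sum lower in every KO library than in any WT library of the same sex, the nerve sum was lower likewise, and their part in the results of the other lists was not tested.

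**Figure D4:**
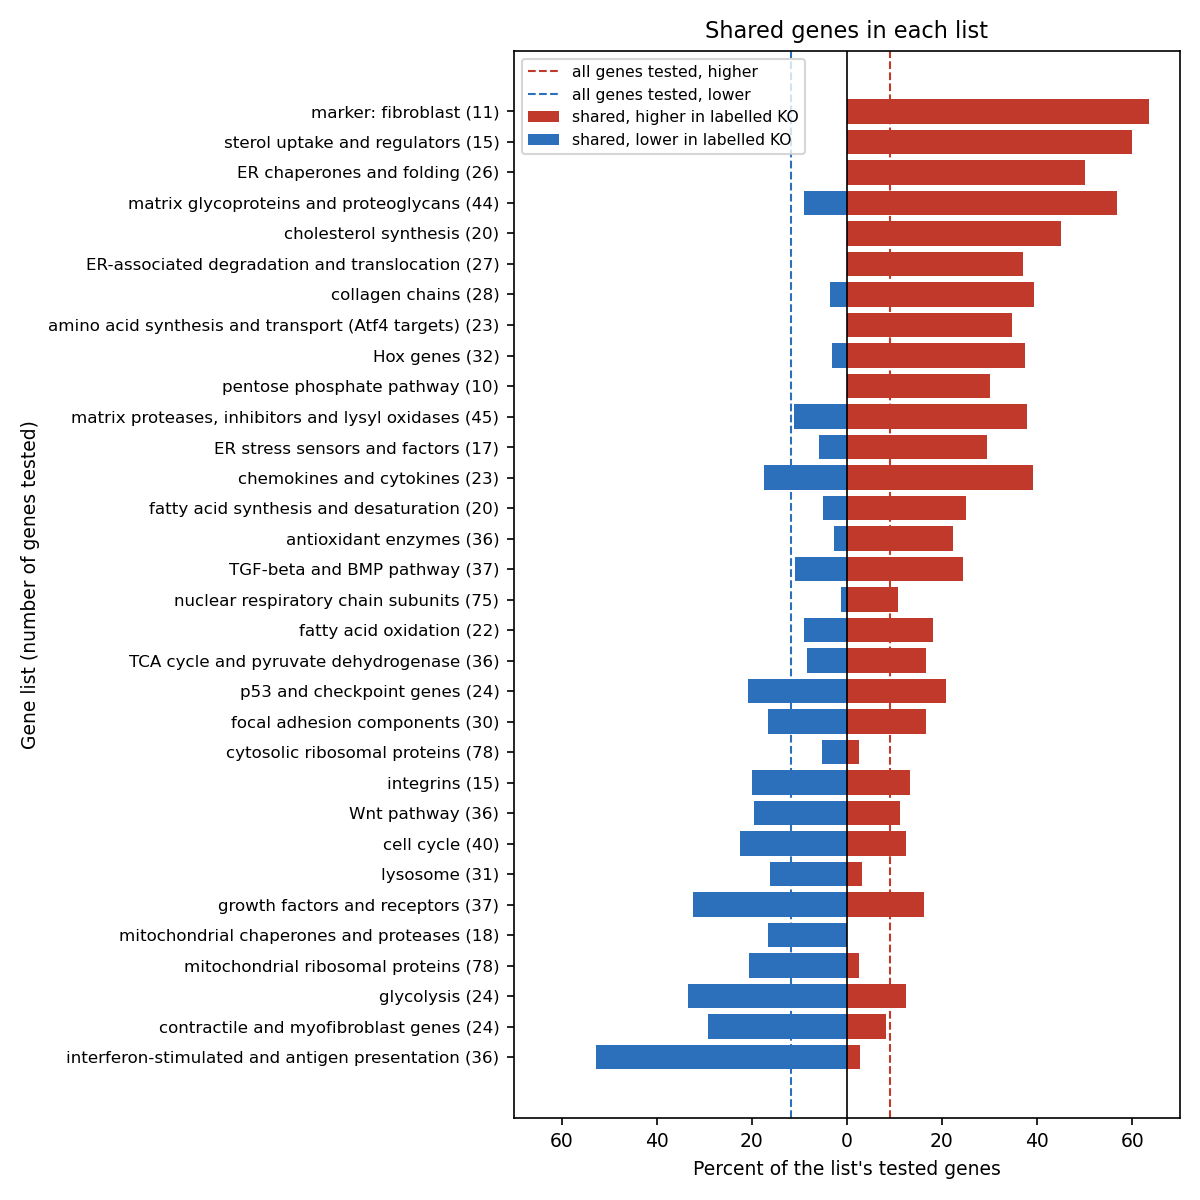
Share of tested genes in each list of 10 or more that were shared and higher (red, to the right) or shared and lower (blue, to the left) in labelled KO, with dashed lines for all 12504 genes (9.11% higher, 11.7% lower). Fibroblast markers, sterol uptake, ER folding and matrix glycoproteins extend furthest to the right, and interferon genes furthest to the left.

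At the edge of the threshold, the last genes called by limma, Benjamini-Hochberg were Rtraf (−0.20, adjusted p = 0.04987) and Slc25a30 (−0.23, adjusted p = 0.04995). The first not called by the same limma fit were Ipo4 (−0.11, adjusted p = 0.05001) and Spast (−0.13, adjusted p = 0.05001). Higher genes made up 43.8% of the shared genes on TPM and 52.3% (1352 higher and 1235 lower) after median-of-ratios scaling, so which direction holds the majority depends on the scaling.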

How the data were processed

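RNA of 12 cultures was measured in 4 groups of 3 libraries. The deposited TPM values were made by the authors with Salmon on GRCm38 (version 1.10.1 per the deposited notes), and the table holds no counts. It therefore gives neither the depth reached nor the precision that depth sets. The table holds 34866 genes, of which 99.4% of identifiers matched GENCODE, the source of symbols and positions.

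From these values, log2(TPM+1) of 12504 genes (those averaging 1 TPM or more) was fitted with limma 3.58.1 in R 4.3.3 (a mean-variance trend, sex and genotype as terms), and p-values were adjusted by Benjamini-Hochberg over all genes tested. The authors tested with DESeq2, which needs counts and was not used. Each pair was also fitted alone, and the difference between the pairs was tested over 4 group means. Tables and figures were made with python 3.11.15, pandas 2.3.3 and matplotlib 3.10.9. Before use, the fit was tested on simulated data, where false calls somewhat exceeded the nominal share and some added changes of each size were missed, more of the smaller ones, which still exceed the typical shared change.

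Genes were named by rule: Sirt3, then the 12 higher and 12 lower shared genes without overlap and averaging 5 TPM or more that have the largest change in the pair that moved less, then up to 4 shared genes per list, then the genes next to the threshold. Results for some of these genes are not reported here, though counts and medians of lists include them. Other list members in the text were named after their values were seen. Members and lists were chosen with earlier results of these data known. Alternatives were a pseudocount of 0.1, a filter at 5 TPM or none, scaling by median of ratios or by quantiles, no trend, a replicate block, no sex term, the mean of both pair contrasts, and leaving out each library in turn.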

Additional observations from a re-analysis of the deposited data

Results flagged for a closer look

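For 39 of the genes named by rule, the change in labelled KO differed between the male and the female pair by limma's test of that difference (Benjamini-Hochberg over all 12504 genes, adjusted p from 2.50e-06 to 0.0462, 3 libraries a group). Each value given here is the log2 fold change in the male pair minus that in the female pair, so a positive value for a gene that rose, and a negative value for a gene that fell, means a larger change in male cells. Of the shared genes as a whole, 520 differed in this way.

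Among the leading genes the difference was 1.60 for Smoc1, 1.74 for Col2a1, −2.10 for Nr2f1 and −1.91 for Krt19. Matrix and adhesion genes gave 0.34 for Col6a1, 0.97 for Emilin1, −1.89 for Itga2, −0.62 for Itga3, −0.69 for Parvb, 0.52 for Tln2 and 0.24 for Ccn2. In the ER lists it was 0.19 for P4hb, −0.15 for Calr, 0.47 for Herpud1 and 0.30 for Ddit4. Secreted signals and inflammatory genes gave 1.08 for Gdf15, 1.59 for Dkk3, −2.62 for Wnt10b, 0.41 for Igf2, 1.30 for Cxcl14 and −0.34 for Ptgs2. The interferon genes Isg15 and Usp18 stood at −0.80 and −1.06.

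Cell cycle and p53 genes gave −0.15 for Ccnb1, −0.86 for Perp and 0.36 for Sesn2. Metabolic genes gave 0.49 for H6pd, 0.45 for Fads3 and 1.17 for Pycr1, and the stress-induced regulator Nupr1 gave 0.95. Mitochondrial and lysosomal genes gave −0.23 for Phb2, −0.14 for Hspd1, 0.46 for Lipa and 0.22 for Grn. Cell type markers gave −1.24 for Krt18, 2.61 for Des, 0.93 for Kdr, 1.70 for Erg and −1.74 for Fabp4.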

How the results depend on the processing

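The 2601 shared genes became between 2232 and 3107 under 8 alternatives, and none took the opposite sign. The exception in size was the fit without a sex term, which called 1544 genes, all 1544 of them shared. With the replicate number as a block, the shared genes were 2232, of which 2187 were in common with 2601, the female pair had 670 calls against 1434, and 305 genes were called in each pair with the same direction against 593. Replicates share only a number here: correlations of same-numbered libraries' deviations ran from −0.0571 to 0.0779. The cause of these moves was not tested.

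Leaving out 1 library at a time gave 2105 to 2414 calls over both pairs, 2102 to 2386 shared genes, 1617 to 1784 of them without overlap, 1813 to 2318 calls in the male pair and 1353 to 1559 for the difference between pairs. The female pair fell to 774 to 835 calls whichever of its 6 libraries was left out (lowest without female WT replicate 3, highest without female KO replicate 2). Genes called in each pair with the same direction numbered 364 to 535, the lowest without female WT replicate 3. A group left with 2 libraries is assumed to vary like the others.

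Without the sex term, list counts of shared higher genes went from 12 to 2 for Hox genes, 13 to 7 for ER folding, 25 to 16 for matrix glycoproteins, 9 to 4 for TGF-beta and BMP, 9 to 3 for chemokines, 8 to 5 for antioxidant genes, 8 to 4 for Atf4 targets, 8 to 2 for respiratory chain, 6 to 3 for growth factors, 5 to 1 for focal adhesion, 5 to 2 for p53, 5 to 3 for cell cycle, 4 to 2 for Wnt and 3 to 1 for glycolysis. With the mean of both pair contrasts, lower counts went from 3 to 5 for the TCA cycle and 1 to 3 for antioxidant genes. Leaving out the sex term took lower counts from 8 to 2 for glycolysis, 7 to 3 for contractile genes, 5 to 2 for matrix proteases and p53, 5 to 3 for focal adhesion and lysosome, 4 to 1 for TGF-beta and BMP and 4 to 1 for cytosolic ribosomal proteins. List medians also moved: that of chemokines ran from 0.10 to 0.33 and that of integrins from −0.10 to −0.024 over the settings.

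Of the 158 genes named by rule, no sign was reversed. Calls were lost by 34 without the sex term, 15 without a filter, 13 with the block, 8 without the trend, 6 with median-of-ratios scaling, 4 with a pseudocount of 0.1, 3 with quantile normalization, and 11 to 18 when 1 library was left out. The depth reached is not given, so a limit from counting cannot be given, and values near 1 TPM are the least certain.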

Other observations

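Some gene families outside the lists were counted after their values were seen, and so get no test. Over all genes tested, 11.7% were shared and lower and 9.11% shared and higher. Of 34 tested genes of nucleolar ribosome assembly (Nol, Nop, Utp and Rrp names), 17 were shared and lower (50%) and 0 higher, with a median log2 fold change of −0.16. Of 9 Tomm genes, for the import pore of the outer mitochondrial membrane, 6 were lower (66.7%) and 0 higher (median −0.14). Of 7 protein arginine methyltransferase genes 4 were lower (57.1%) and 0 higher, and of 7 chaperonin genes (Cct) 3 were lower (42.9%) and 0 higher. In the other direction, 4 of 10 septin genes were higher (40%) and 0 lower. Of 37 histone cluster genes, whose near-identical copies can share reads, 8 were lower (21.6%) and 1 higher (2.70%).

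By chromosome, 65 of 405 tested genes on the X chromosome were shared and higher (16.0%) and 24 lower (5.93%). Chromosome 3 had 47 higher and 115 lower of 627 genes (18.3% lower), and chromosome 17 had 27 higher (4.49%) and 87 lower of 602. Within 1 Mb of Sirt3 on chromosome 7, 43 other genes were tested, with 6 shared and higher and 4 lower. These stand against 9.11% higher and 11.7% lower over all genes tested.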
